A study of Mus musculus with 15 samples.

Results

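The replication-dependent histone genes were taken as every gene of the deposited files whose symbol begins with *Hist1h*, *Hist2h*, *Hist3h* or *Hist4h*, which gave 63 of 21110 genes. They comprised 6 genes for the linker histone H1, 17 for H2A, 16 for H2B, 12 for H3 and 12 for H4. RNA from mouse ears was sequenced in 15 libraries of 1 mouse each, and the study asked how gene expression differs between *Socs3* conditional knockout (*Socs3* cKO) mice and the wild type at 2 ages. The groups were wild type C57BL/6 mice at 2 weeks (n = 4) and 10 weeks (n = 3), and mice of the same background with *Socs3* deleted under the keratin 5 promoter, which is active in basal keratinocytes, at 2 weeks (n = 4) and 10 weeks (n = 4). The methods state 6 and 4 wild type mice, and the others were not analysed here. The labels name keratinocytes as the source, but the RNA came from ear specimens, so that *Socs3* was deleted in only some of the cells sampled. Fewer cells of a type and less RNA per cell cannot be told apart in such samples.

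Replication-dependent histone genes encode the bulk of the protein on which newly copied DNA is wrapped, with H2A, H2B, H3 and H4 forming the nucleosome core and H1 binding the DNA between cores. Their mRNAs are made mainly in S phase and, unlike other mRNAs, usually end in a conserved stem-loop that the protein SLBP binds, with no poly(A) tail. Some of these genes can also give polyadenylated mRNA from a site downstream of the stem-loop, as is known for differentiated cells. The libraries were made with a kit (TruSeq RNA v2) that enriches poly(A) RNA, so that the values below count mainly whatever histone RNA passed that step.

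The stem-loop was searched for on the strand of the gene, within 150 bases of genome after the stop codon in the mm9 build, as the pattern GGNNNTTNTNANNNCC. Its eighth base had to be C or T, and its first and last 6 bases had to pair with each other, with G to T counted as a pair. Such a stem-loop was found in 59 of the 63 genes and in 67 of 21770 annotated protein-coding genes (0.308%). The 12 below belong to genes whose values are described and to *Hist1h3g*, shown because no other member has its spelling, with the stem-loop in capitals and 5 flanking bases on each side in lower case, read on the strand of the gene.
Hist1h1c (H1, chr13:23831376-23831401, + strand): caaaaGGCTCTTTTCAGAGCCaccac
Hist2h2aa1 (H2A, chr3:96049950-96049975, + strand): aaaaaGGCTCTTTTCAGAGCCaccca
Hist3h2a (H2A, chr11:58768669-58768694, + strand): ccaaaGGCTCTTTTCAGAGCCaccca
Hist1h2bc (H2B, chr13:23776511-23776536, + strand): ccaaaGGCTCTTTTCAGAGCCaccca
Hist1h2bh (H2B, chr13:23634792-23634817, - strand): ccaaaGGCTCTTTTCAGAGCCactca
Hist3h2ba (H2B, chr11:58762846-58762871, + strand): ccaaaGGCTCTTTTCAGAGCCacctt
Hist2h3c1 (H3, chr3:96051245-96051270, + strand): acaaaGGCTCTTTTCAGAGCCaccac
Hist1h3c (H3, chr13:23836911-23836936, - strand): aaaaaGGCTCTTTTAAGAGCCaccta
Hist1h3g (H3, chr13:23627753-23627778, + strand): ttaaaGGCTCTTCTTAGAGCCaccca
Hist1h4h (H4, chr13:23623322-23623347, + strand): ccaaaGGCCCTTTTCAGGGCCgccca
Hist1h4m (H4, chr13:21903993-21904018, + strand): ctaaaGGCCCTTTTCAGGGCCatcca
Hist1h4i (H4, chr13:22132830-22132855, - strand): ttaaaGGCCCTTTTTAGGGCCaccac

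The stem differed by class. All 47 stem-loops found in H1, H2A, H2B and H3 genes opened with GGCTC, and the commonest, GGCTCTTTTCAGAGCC, stood in 36 of them. None of the 12 H4 genes had it: 10 opened with GGCCC and 2 with GGTCC, and the commonest H4 spelling, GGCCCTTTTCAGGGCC, stood in 7. No match to this pattern was found in that window for *Hist1h2an*, *Hist2h2bb* and *Hist2h2be*. *Hist2h3c2*, counted among the H3 genes, is annotated as a pseudogene without a stop codon, so that no window was searched in it. The genes lie in clusters, with 50 on chromosome 13 (21807632 to 24026720), 10 on chromosome 3 (96023839 to 96082924), 2 on chromosome 11 (58762413 to 58770176) and 1 on chromosome 6 (136752589 to 136752900). The annotation gives 59 of them as single-exon genes. *Hist1h2bc*, *Hist1h2be*, *Hist1h2bp* and *Hist2h2bb* have more exons.

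Depth and markers of the libraries bear on these values. Whole reads recovered from low values put the depth at about 12800000 to 18300000 mapped reads per mouse. Because the genes are short, with a median transcript length of 531 bases, a single read was worth 0.161 to 0.693 FPKM (fragments per kilobase of transcript, scaled to the mapped reads of the library) in the 10 H4 genes tested. That range rests on annotated lengths, with *Hist1h4a* (539 bases) and *Hist1h4k* (312 bases) at its ends. The lengths behind the deposited values are not known, and these genes were given the identical value in 12 of the 15 mice. The wild type libraries at 10 weeks listed 1414 to 3176 genes at 0 FPKM, against 4044 to 4423 in the other groups. *Socs3* itself read 9.71, 10.2, 10.3 and 10.3 FPKM in the wild type at 2 weeks, and 1.25, 9.32, 12.6 and 3.51 FPKM in the mice labelled *Socs3* cKO. At 10 weeks it read 2.76, 4.81 and 2.02 FPKM in the wild type and 36.6, 29.8, 47.7 and 32.4 FPKM in the mice labelled *Socs3* cKO, which goes against the label for the tissue as a whole. The files do not resolve the deleted part of the gene or the cells in which it was deleted, so that each direction below is that of the libraries as labelled. Markers of other cells were present throughout: over all mice the 6 fibroblast markers summed to 3858 to 14858 FPKM and the 8 skeletal muscle markers to 457 to 3626 FPKM, beside 4839 to 11836 FPKM for the 8 keratinocyte markers. No marker of these 3 lists was at 0 in every mouse of a group.

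Most of the genes were low. Of the 63, 46 reached an FPKM of 1 in at least 3 mice and 10 reached it in none. *Hist1h1c*, *Hist1h2bc*, *Hist2h2aa1*, *Hist2h2aa2* and *Hist3h2a* held 41.5% to 58.1% of the summed FPKM of all members in each mouse, and the other 58 genes had means over the 4 groups of below 6 FPKM. Of the 19 genes whose annotated transcript runs over 100 bases past the stem-loop, 3 had a mean of at least 6 FPKM in every group. Of the 40 genes with a shorter annotated end, 2 or 3 did, depending on the group. The median level in wild type mice at 2 weeks was 1.39 FPKM for the genes with a long annotated end and 1.56 FPKM for the others. FPKM is divided by transcript length, and a long annotated end adds to that length. These medians therefore cannot show whether RNA that runs past the stem-loop was more or less abundant.

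**Figure D1:**
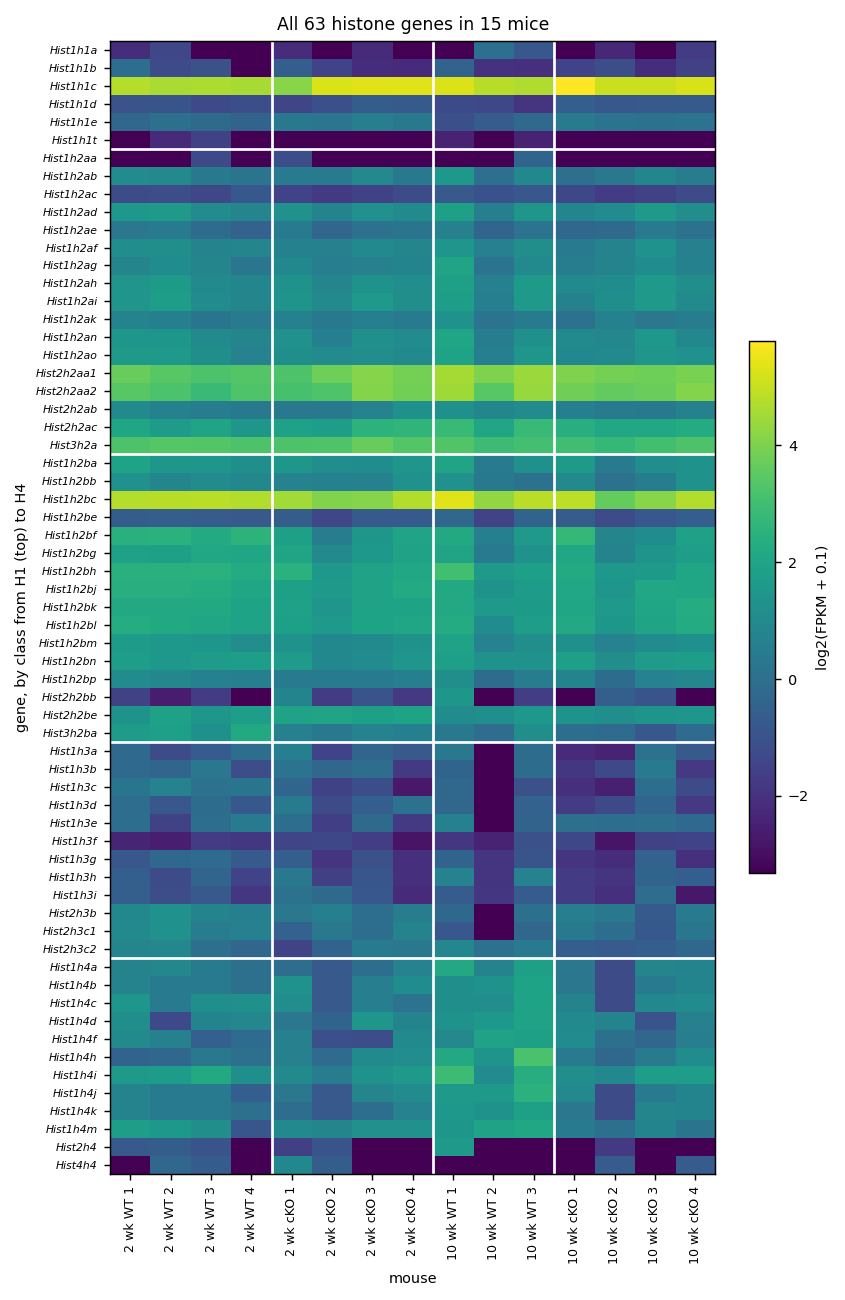
Level of each of the 63 genes (rows, by class from H1 to H4) in each of the 15 mice (columns), as colour on a scale of log2(FPKM + 0.1), with white lines between classes and between groups (WT, wild type; cKO, mice labelled *Socs3* cKO). A few bright rows, led by *Hist1h1c* and *Hist1h2bc*, stand over many dim ones, and 7 H3 genes are listed at 0 in wild type replicate 2 at 10 weeks.

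Many members could not be read apart. In 26 of the 63 genes at least 50% of all 50-base words of the transcript, the length of a read, also occurred at another place of the genome, and in *Hist2h2aa1* and *Hist2h2aa2*, which lie on opposite strands of chromosome 3 (96049461 to 96050038 and 96043639 to 96044216), the share was 100%. *Hist1h4a* and *Hist1h4k* were given the identical value in 12 of the 15 mice. Across the 15 mice, 45 pairs of the same class that shared at least 50% of their words had a median Pearson r of 0.88 between their deviations from the group means, 29 pairs of the same class that shared none had 0.04, and 769 pairs of different classes that shared none had 0.37. These correlations describe pairs of genes measured in the same libraries, with the same depth, so that like values of near-identical genes are not separate observations. *Hist1h1a*, *Hist1h1t*, *Hist1h2aa* and *Hist4h4* gave whole reads (within 0.1) in all 15 mice, while *Hist1h4h* did so in 0 of 15. A value of 0 counted as whole, and these 4 genes were at 0 in 7, 11, 12 and 9 mice. Genes without repeated words did not always give whole reads: *Hist1h1b* did so in 2 of 15 mice and *Hist2h2bb* in 6.

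The linker histone was carried by *Hist1h1c*, which encodes H1.2 (chromosome 13, 23830676 to 23832235). It read 27.4, 24.3, 25.4 and 23.9 FPKM in the wild type at 2 weeks and 17.7, 37.9, 41.2 and 40.05 FPKM in the mice labelled *Socs3* cKO. At 10 weeks its levels were 39.4, 27.9 and 25.8 FPKM against 54.9, 32.8, 33.1 and 37.6 FPKM. The groups overlapped at each age, because of cKO replicate 1 at 2 weeks and wild type replicate 1 at 10 weeks, and no difference passed the test (limma, adjusted p = 0.273 at 2 weeks and 0.257 at 10 weeks). *Hist1h1e*, which encodes H1.4, was far lower, at 0.702, 0.934, 0.781 and 0.645 FPKM in the wild type and 1.19, 1.09, 1.40 and 1.17 FPKM in *Socs3* cKO at 2 weeks. It read 0.364, 0.529 and 0.785 FPKM against 1.29, 1.02, 0.943 and 1.01 FPKM at 10 weeks. The lowest *Socs3* cKO value exceeded the highest wild type value at each age. The log2 fold change was 0.61 ± 0.19 (SE, adjusted p = 0.0292) at 2 weeks, the adjusted p was 0.0545 at 10 weeks, and neither met both limits of a call, an adjusted p below 0.01 and an absolute log2 fold change of at least 1. The remaining 4 H1 genes had means of 0.0368 (*Hist1h1t*, the testis linker histone) to 0.387 FPKM (*Hist1h1d*).

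**Figure D2:**
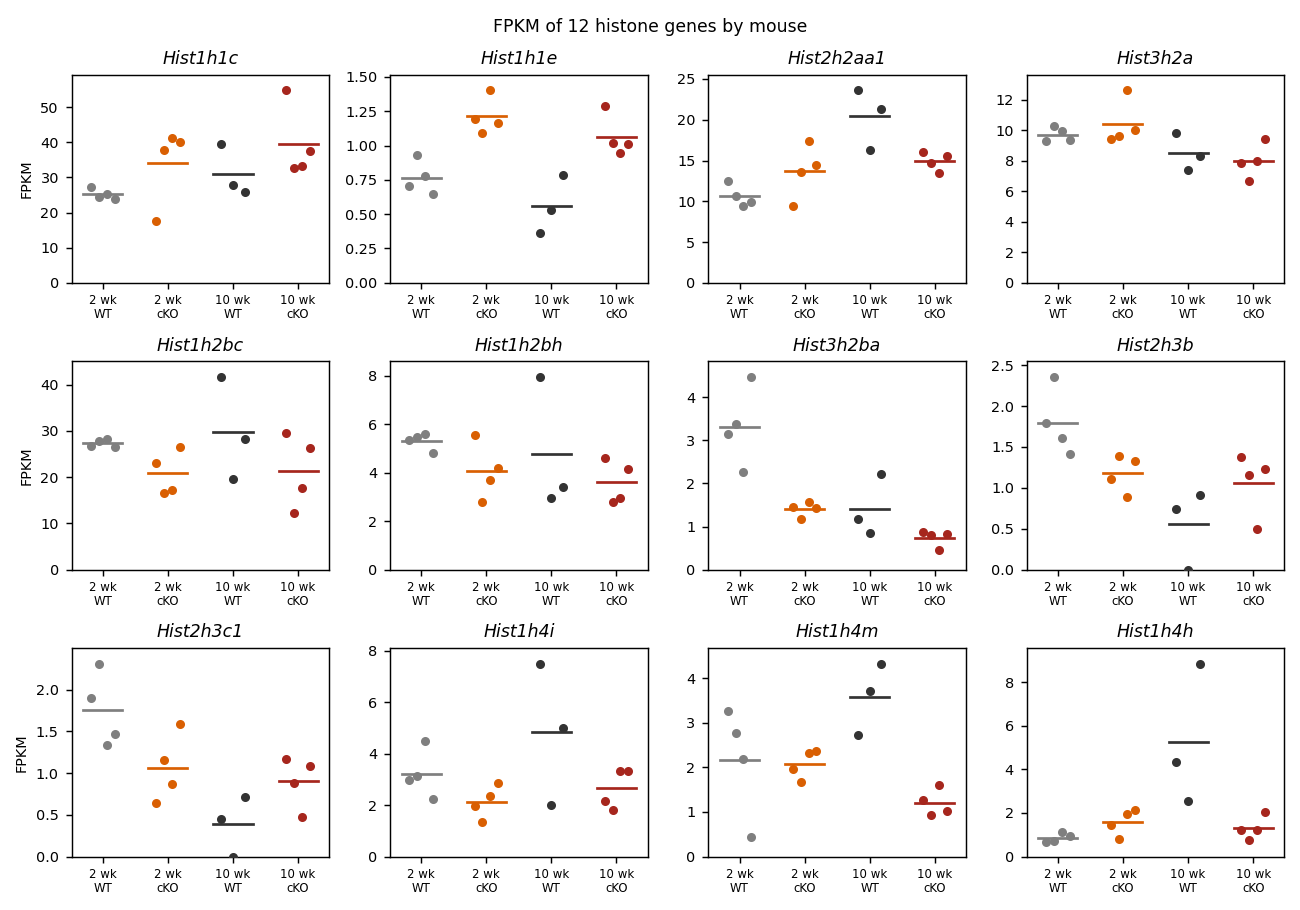
FPKM of 12 histone genes in each mouse (points) with the group mean (line), for the wild type (WT) and the mice labelled *Socs3* cKO (cKO) at 2 and 10 weeks, each panel on its own linear axis from 0. *Hist1h4h* and *Hist1h4m* at 10 weeks, and *Hist3h2ba* at 2 weeks, show wild type mice above every *Socs3* cKO mouse.

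At 2 weeks, 1 of the 45 members tested was called between *Socs3* cKO and the wild type, while 14.4% of all 13524 genes tested were (7.24% higher, 7.19% lower). The gene was *Hist3h2ba*, an H2B gene on chromosome 11 (58762413 to 58763032), and it was lower in *Socs3* cKO. The median log2 fold change of the members was -0.18, beside -0.21 over all genes tested. At an adjusted p below 0.05 with no fold limit, 1 member was higher and 3 were lower, beside 47.9% of all genes (21.8% higher, 26.1% lower).

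*Hist3h2ba* read 3.15, 3.38, 2.26 and 4.47 FPKM in the wild type and 1.46, 1.17, 1.57 and 1.44 FPKM in the mice labelled *Socs3* cKO. Every wild type mouse lay above every *Socs3* cKO mouse. The log2 fold change was -1.15 ± 0.23 (SE, adjusted p = 0.0064). These levels rest on about 16.1 to 26.2 reads per wild type mouse and 8.10 to 11.1 per *Socs3* cKO mouse, and 23.6% of its 50-base words occur at another place of the genome, none of them in another member. The call was lost in 5 of the 8 fits that left out 1 mouse, which were those without wild type replicate 1, 2 or 4 and without *Socs3* cKO replicate 3 or 4. Over the 8 fits the log2 fold change ran from -1.31 to -0.99 and the adjusted p reached 0.0254. It was also lost in 6 of 10 processing alternatives, with a log2 fold change as small as -0.64 and an adjusted p of up to 0.1005.

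No other H2B gene was called at 2 weeks. Of the 14 tested, *Hist3h2ba* included, 13 were lower in *Socs3* cKO and *Hist2h2be* was higher (0.30, adjusted p = 0.172), with a class median of -0.35, which was also below the median of all genes (-0.21). *Hist1h2bc*, the most abundant H2B gene, read 26.8, 27.7, 28.2 and 26.6 FPKM in the wild type and 23.1, 16.5, 17.2 and 26.5 FPKM in *Socs3* cKO (adjusted p = 0.0731). *Hist1h2bh* read 5.35, 5.45, 5.59 and 4.81 FPKM against 5.54, 2.78, 3.70 and 4.20 FPKM (adjusted p = 0.131). The groups overlapped in *Hist1h2bh*, through *Socs3* cKO replicate 1, and lay side by side without overlap in *Hist1h2bc*. *Hist1h2bf*, chosen after its values were seen, was lower by a log2 fold change of -0.98 (adjusted p = 0.0354). This class direction turned with the scaling: 10 of 14 were higher after quantile normalization and 8 of 14 after the trend with length and GC content was removed, while 12 of 14 were lower after median-of-ratios scaling.

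H3 and H4 genes at 2 weeks stood as follows. All 4 H3 genes tested, the annotated pseudogene *Hist2h3c2* included, were lower in *Socs3* cKO, with a median of -0.67. The H3 genes below the filter did not share a direction. Without the filter *Hist1h3a* (0.02), *Hist1h3d* (0.13), *Hist1h3f* (0.29) and *Hist1h3i* (0.31) were higher. *Hist1h3b* (-0.15), *Hist1h3e* (-0.61), *Hist1h3g* (-0.93) and *Hist1h3h* (-0.13) were lower. *Hist1h3c*, also chosen after its values were seen, was lower by a log2 fold change of -1.75 (adjusted p = 0.0162), at 0.984 to 1.52 FPKM in the wild type and 0.0547 to 0.684 FPKM in *Socs3* cKO. It passed the filter through the wild type alone, and *Socs3* cKO mice held an estimated 0.432 to 4.37 reads. Of 10 H4 genes, 5 were higher and 5 lower, and H2A genes split as 9 higher and 6 lower with a median of 0.01. After median-of-ratios scaling and after quantile normalization all 15 H2A genes were higher, and 13 were after removal of the length and GC trend. Counting all 63 genes whether or not they were tested, 1 lay wholly above and 5 wholly below the wild type at 2 weeks (9.52%). Of the 13937 genes that reached 1 FPKM in 3 mice, 55.2% did not overlap, beside 13% of the 46 members among them.

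The 2-week groups also differed in the levels of markers of hair and muscle cells. All 11 hair matrix and shaft markers found in the files, of 12 listed, were called lower in *Socs3* cKO, and their summed level was 637 to 1063 FPKM in the wild type and 7.49 to 14.3 FPKM in *Socs3* cKO, with none at 0 in every mouse of a group. The skeletal muscle markers summed to 707 to 1075 FPKM in the wild type and 1820 to 3626 FPKM in *Socs3* cKO, with 6 of 8 called higher. The part of these cells in the H2B and H3 values was not tested. Genes of S phase and cycling did not follow 1 direction: limma called none of the 27 tested, and at an adjusted p below 0.05 with no fold limit 4 were higher and 6 lower. *Rrm2*, a subunit of the enzyme that makes deoxynucleotides, had a log2 fold change of -0.71 (adjusted p = 0.0115), *Pcna*, the clamp of the replication polymerases, 0.85 (0.0249), *Mki67*, a marker of cycling cells, -0.32 (0.185) and *Top2a*, a topoisomerase of dividing cells, 0.00 (0.991). *Slbp*, which binds the stem-loop, gave 0.53 (0.0715).

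**Figure D3:**
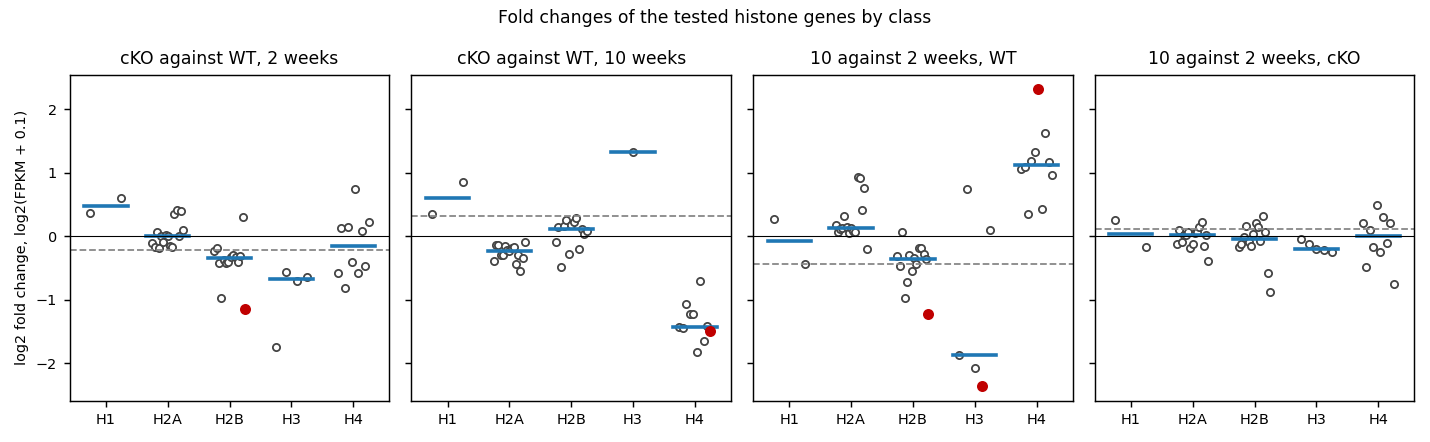
Log2 fold change of each tested histone gene on the log2(FPKM + 0.1) scale, by class, in 4 comparisons of mice labelled *Socs3* cKO (cKO) and wild type (WT); filled red points were called, blue bars are class medians and the dashed line is the median of all genes tested. H4 genes lie below 0 in *Socs3* cKO at 10 weeks (median -1.42) and above 0 with age in the wild type (median 1.13), and near 0 with age in *Socs3* cKO.

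At 10 weeks the H4 genes, which all encode the same protein, were lower in *Socs3* cKO. All 10 tested had a negative log2 fold change, from -1.83 to -0.70 with a median of -1.42, while the median of all genes was 0.31. *Hist1h4m* was called, the only one of 41 members tested, beside 14.9% of all 13105 genes (12.5% higher, 2.43% lower). At an adjusted p below 0.05 with no fold limit, 6 tested members, all of them H4 genes, were lower and none was higher, where 28.7% of all genes were higher and 8.96% lower (37.6% in all). The balance over all genes moved with the scaling, from 1638 called higher and 319 lower to 909 higher and 817 lower after quantile normalization.

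The summed FPKM of the 12 H4 genes was 36.3, 26.3 and 45.6 in the wild type at 10 weeks and 15.3, 8.32, 14.9 and 18.2 in *Socs3* cKO, so that the groups did not overlap and the means differed as 36.0 ± 9.63 (SD, n = 3) to 14.2 ± 4.19 (SD, n = 4), a ratio of 0.394. At 2 weeks the same sums were 20.5, 16.3, 18.4 and 11.8 FPKM for wild type mice against 17.4, 8.21, 15.8 and 19.0 FPKM for *Socs3* cKO. The 3 wild type mice at 10 weeks stood above all 12 other mice, and the other 3 groups overlapped one another.

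*Hist1h4m* (chromosome 13, 21903615 to 21904016) read 2.73, 3.71 and 4.33 FPKM in the wild type at 10 weeks and 1.27, 0.932, 1.61 and 1.03 FPKM in *Socs3* cKO. The groups did not overlap, and the log2 fold change was -1.49 ± 0.28 (SE, adjusted p = 0.00364). Left out in turn, wild type replicate 3 and *Socs3* cKO replicates 1 and 2 each took the call away, with an adjusted p of up to 0.0212 and a log2 fold change of -1.67 to -1.35 over the 7 such fits. The call was also lost in 4 of 10 processing alternatives, with log2 fold changes of -1.97 to -1.05 and an adjusted p of up to 0.0257. *Hist1h4h* (chromosome 13, 23622919 to 23623388) read 4.35, 2.53 and 8.85 FPKM against 1.23, 0.738, 1.20 and 2.04 FPKM. It had the largest difference in size of the H4 genes and just missed the limit, with -1.83 ± 0.44 (SE, adjusted p = 0.0106). *Hist1h4i*, the H4 gene with the highest mean, read 7.49, 1.98 and 5.01 FPKM against 2.17, 1.80, 3.31 and 3.31 FPKM, and its groups overlapped (adjusted p = 0.21).

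*Hist1h4b*, *Hist1h4f*, *Hist1h4j* and *Hist1h4k* were the other H4 genes with an adjusted p below 0.05, with log2 fold changes of -1.45, -1.23, -1.65 and -1.42. In the limma fits without 1 mouse their adjusted p reached 0.134, 0.12, 0.133 and 0.138, in the same order. Over the processing alternatives it reached 0.091, 0.105, 0.0927 and 0.105. Over the 10 H4 genes, 32.3% to 89.8% of 50-base words occurred elsewhere, so that these are not 10 separate measurements. Single genes held an estimated 0.661 to 41.4 reads in a mouse, on the annotated lengths. The H4 direction held under the scalings tried: after median-of-ratios scaling, after quantile normalization and after the trend with length and GC content was removed, all 10 were lower at 10 weeks.

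**Figure D4:**
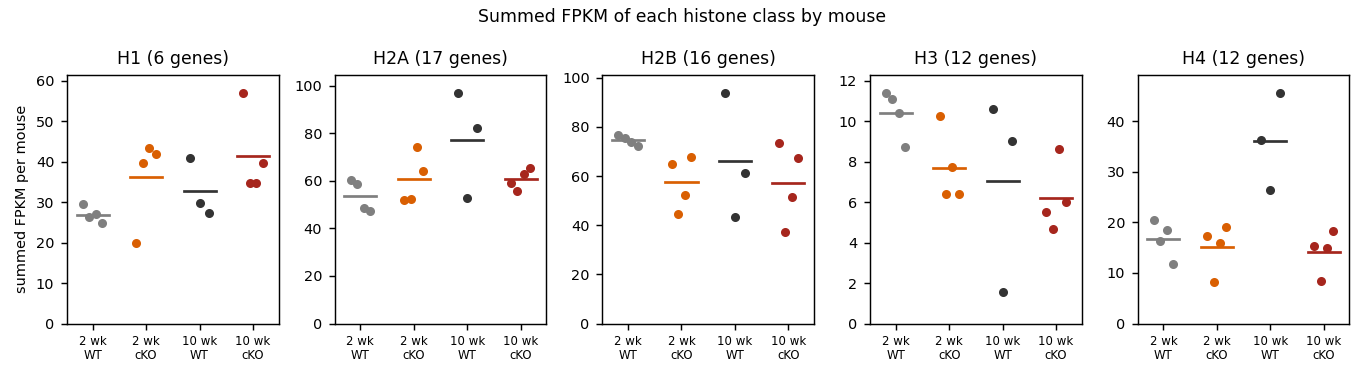
Summed FPKM of the genes of each histone class in each mouse (points) with the group mean (line), for the wild type (WT) and the mice labelled *Socs3* cKO (cKO) at 2 and 10 weeks, on linear axes from 0. The 3 wild type mice at 10 weeks lie at 26.3 to 45.6 for H4, above the other 12 mice, and no other class shows groups at 10 weeks that do not overlap.

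The other classes at 10 weeks had no member at an adjusted p below 0.05. All 15 H2A genes tested were lower in *Socs3* cKO with a median of -0.24, against 0.31 over all genes, but that median was 0.00549 without wild type replicate 1 and 0.0914 after removal of the length and GC trend, under which 10 of the 15 were higher. All 15 were lower after median-of-ratios scaling and after quantile normalization. *Hist2h2aa1*, which encodes a major H2A, read 23.7, 16.3 and 21.3 FPKM in the wild type and 15.99, 14.7, 13.5 and 15.5 FPKM in *Socs3* cKO (adjusted p = 0.0764). *Hist2h2aa2*, of the same sequence, read 22.4, 10.6 and 20.7 FPKM against 13.99, 11.996, 13.01 and 16.98 FPKM (adjusted p = 0.399). Wild type values spread widely in both, with replicate 2 the lowest. *Hist3h2a*, next highest in the class and with 2.16% of its words shared, read 9.82, 7.40 and 8.28 FPKM against 7.88, 6.65, 7.97 and 9.42 FPKM (adjusted p = 0.727).

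Of 13 H2B genes tested at 10 weeks, 9 were higher and 4 lower (median 0.12), while 11 of 13 were lower after median-of-ratios scaling, 13 of 13 after quantile normalization and 3 of 13 after removal of the length and GC trend. H2B sums overlapped at this age, at 43.1 to 93.8 FPKM in the wild type and 37.1 to 73.6 FPKM in *Socs3* cKO. *Hist1h2bc* read 41.7, 19.7 and 28.2 FPKM against 29.5, 12.3, 17.6 and 26.4 FPKM (adjusted p = 0.267), and *Hist1h2bh* read 7.95, 2.95 and 3.41 FPKM against 4.60, 2.80, 2.95 and 4.13 FPKM (adjusted p = 0.548). *Hist3h2ba* read 1.17, 0.861 and 2.21 FPKM against 0.875, 0.813, 0.453 and 0.819 FPKM, which kept it below the filter. H3 could not be compared well at this age. In wild type replicate 2, *Hist1h3a*, *Hist1h3b*, *Hist1h3c*, *Hist1h3d*, *Hist1h3e*, *Hist2h3b* and *Hist2h3c1* were listed at 0, while no other mouse had an H3 gene at 0, and only 1 H3 gene passed the filter. Of all 63 genes, 2 lay wholly above and 11 wholly below the wild type at 10 weeks (20.6%), and 7 of the 11 were H4 genes. Of the 13937 expressed genes, 41% did not overlap, beside 23.9% of the 46 members among them.

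Other measures also differed between the genotypes at 10 weeks, and their part in the H4 values was not tested. The RNAs *Rmrp* and *Rpph1*, which have no poly(A) tail and were chosen after their values were seen, read 34.1, 7.24 and 7.07 FPKM and 33.6, 5.19 and 15.5 FPKM in the wild type at 10 weeks, above all other mice, which lay at 0.72 to 3.43 FPKM and 0 to 2.95 FPKM. The longer list of 101 small RNAs without a tail did not do so, as 4 of 55 tested were called lower and 4 higher in *Socs3* cKO, with a median log2 fold change of 1.25. The leukocyte markers, of which 10 of 12 were in the files, summed to 261 to 415 FPKM in the wild type and 568 to 985 FPKM in *Socs3* cKO, with 5 of 8 tested called higher and none at 0 in every mouse of a group. The muscle markers summed to 1068 to 1832 FPKM in the wild type and 457 to 813 FPKM in *Socs3* cKO, with 2 of 8 called lower. The wild type libraries of this age also had the fewest genes at 0, as given above. Library numbers in the titles ran in separate ranges for each group, so that whatever these numbers mark and the group cannot be told apart.

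Genes that act with histone production differed by list at 10 weeks, where 12.5% of all genes were called higher and 2.43% lower, with a median of 0.31. Of 26 S phase and cycling genes tested at 10 weeks, 1 was called lower (*Tyms*, which makes thymidylate, log2 fold change -2.01) and none higher, with a median of 0.29. *Rrm2* gave 0.58 (adjusted p = 0.0825), *Pcna* 0.60 (0.0979), *Mki67* 0.67 (0.121), *Top2a* 0.85 (0.0535) and *Slbp* -0.54 (0.0433). Among 18 genes for histone mRNA ends, 2 were called higher: *Npat*, the coactivator of histone gene transcription in S phase (1.14), and *Casp8ap2*, which works at the same loci (1.06, and called at 2 weeks too, at 1.08). At 2 weeks it was the 1 gene called of 17 of that list. Variant histones, listed apart from the members, gave 2 of 11 called lower, *H2afx* (-1.33) and *H1fx* (-2.02), and none higher, with a median of -0.05. The list of genes for histone mRNA ends had a median of 0.23, and none of 11 histone chaperones was called. At 2 weeks 1 of 11 variant histones was called, *Cenpa* of the centromere (-1.55), and 1 of 11 chaperones, *Hira* (-1.37).

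With age in the wild type, all 10 H4 genes tested were higher and 3 of 5 H3 genes were lower. Of 46 members tested between 10 and 2 weeks, 3 were called, which were *Hist1h4h* higher and *Hist2h3c1* and *Hist3h2ba* lower, beside 25.5% of all 13937 genes (6.18% higher, 19.4% lower). At an adjusted p below 0.05 with no fold limit, 6 were higher and 4 lower, beside 50.8% of all genes (13.1% higher, 37.6% lower). Over all genes the calls were 861 higher and 2698 lower, and 1721 higher and 1574 lower after quantile normalization. The comparison shares its 10-week mice with the one between genotypes above, so that the H4 values there are not independent of these. *Hist1h4h* stood at 0.655, 0.728, 1.15 and 0.935 FPKM at 2 weeks and at the 4.35, 2.53 and 8.85 FPKM given above at 10 weeks. The log2 fold change was 2.32 ± 0.42 (SE, adjusted p = 0.00064), and it was called under each of the 9 alternatives that kept the same limits and in each of the 7 fits without 1 mouse. On its annotated length a single read was worth 0.202 to 0.289 FPKM in this gene, so that the 2-week values stand for about 2.52 to 5.28 reads.

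The H4 genes had log2 fold changes of 0.35 to 2.32 with age in the wild type, with a median of 1.13 against -0.44 for all genes. All 10 were also higher after median-of-ratios scaling, quantile normalization and removal of the length and GC trend. *Hist1h4j* and *Hist1h4k* had an adjusted p below 0.05, at 1.63 (adjusted p = 0.0223) and 1.16 (0.0416). *Hist1h4m* read 3.26, 2.78, 2.18 and 0.442 FPKM at 2 weeks, overlapping its 10-week values (adjusted p = 0.103), and *Hist1h4i* read 2.97, 3.13, 4.49 and 2.25 FPKM at 2 weeks (adjusted p = 0.38).

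*Hist2h3c1* and *Hist2h3b*, which encode H3.2, were the highest H3 genes at 2 weeks. *Hist2h3c1* (chromosome 3, 96049477 to 96052431) read 1.89, 2.31, 1.34 and 1.47 FPKM at 2 weeks and 0.449, 0 and 0.708 FPKM at 10 weeks in the wild type. *Hist2h3b* (96072577 to 96073064) read 1.80, 2.36, 1.61 and 1.41 FPKM and then 0.742, 0 and 0.917 FPKM. Neither gene had overlapping ages, and the log2 fold changes were -2.36 ± 0.56 (adjusted p = 0.00372) and -2.08 ± 0.61 (adjusted p = 0.0118). These sizes lean on replicate 2, listed at 0: without it they were -1.45 and -1.01. The *Hist2h3c1* call was lost without replicate 1 or 2 at 2 weeks, with an adjusted p of up to 0.0123. It was also lost in 5 of 9 processing alternatives, with log2 fold changes of -3.53 to -1.01 and an adjusted p of up to 0.0379. The 2 share 79.7% of the words of *Hist2h3b*, and the annotated *Hist2h3c1* also spans 562 of the 578 bases of *Hist2h2aa1*, so that reads of the 3 could be mixed.

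*Hist3h2ba* was lower in the wild type at 10 weeks by a log2 fold change of -1.23 ± 0.31 (adjusted p = 0.00554), and its ages did not overlap. That call was lost in 5 of 7 fits without 1 mouse, which were those without replicate 1, 2 or 4 at 2 weeks and without replicate 1 or 2 at 10 weeks, with an adjusted p of up to 0.0265. It was also lost in 4 of 9 processing alternatives, with a log2 fold change as small as -0.53 and an adjusted p of up to 0.283. Most H2A and H2B genes had opposite signs with age: 14 of 15 H2A genes were higher (median 0.13) and 13 of 14 H2B genes lower (median -0.35). Without replicate 1 at 10 weeks the H2A median was -0.15. The H2A genes at an adjusted p below 0.05 were *Hist2h2aa1* (0.93, adjusted p = 0.00194, from 12.5, 10.6, 9.38 and 9.94 FPKM at 2 weeks), *Hist2h2aa2* (0.92, adjusted p = 0.0142, from 10.51, 9.07, 7.07 and 9.46 FPKM) and *Hist2h2ac* (0.76, adjusted p = 0.0276). The first 2 did not overlap between ages. The H2B sign depended on the scaling: 8 of 14 were higher after median-of-ratios scaling and 11 of 14 after quantile normalization, which moved the median of all genes by 0.39 and 0.51, while 13 of 14 were lower after removal of the length and GC trend. Of all 63 genes, 7 lay wholly above and 5 wholly below their 2-week values (19%), and 5 of the 7 were H4 genes. Among expressed genes the share was 66.8%, and among the 46 expressed members it was 26.1%.

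Among S phase and cycling genes, 3 of 27 tested were called lower with age in the wild type and 1 higher, *Tyms* (2.64), with a median of -0.45. *Rrm2* was called lower (-1.33, adjusted p = 0.000275), *Top2a* gave -1.10 (0.0113), *Mki67* -0.74 (0.0434), *Pcna* -0.12 (0.729) and *Slbp* 0.47 (0.0826). The others called lower were *Mcm2* and *Mcm5*, parts of the replicative helicase. Of 18 genes for histone mRNA ends, 1 was called, *Upf1* (-1.95), which acts in the decay of histone mRNA. Of 11 variant histones *H2afj* was called higher, and of 11 chaperones *Hira* was called lower (-1.33). The 11 hair matrix and shaft markers were all called lower with age, from the 637 to 1063 FPKM given above to 8.83 to 11.3 FPKM in sum, and their part in the H3 and H2B values was not tested.

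In the mice labelled *Socs3* cKO no member was called between 10 and 2 weeks by limma, of 46 tested and beside 3.54% of all genes (2.01% higher, 1.53% lower). At an unadjusted p below 0.05 there were 3 of 46. The share of all genes at that limit was not computed, so that nothing about the members is read from this count. At an adjusted p below 0.05 with no fold limit 1 was lower and none higher, beside 10.1% of all genes (5.29% higher, 4.80% lower). *Hist2h2be*, an H2B gene without a stem-loop in the window searched and chosen after its values were seen, had a log2 fold change of -0.58 ± 0.17 (adjusted p = 0.0444), from 3.70, 3.88, 3.48 and 3.76 FPKM at 2 weeks to 2.46, 2.15, 2.55 and 2.64 FPKM at 10 weeks, with no overlap. *Hist3h2ba* did not overlap either (adjusted p = 0.0724). The median over all members was -0.06, beside 0.11 over all genes, and H4 genes split as 5 higher and 5 lower. Of the 63 genes, 4 lay wholly below and none wholly above (6.35%). Among expressed genes the share was 14.5%, and among the 46 expressed members it was 8.7%. None of the genes of S phase, histone mRNA ends, variant histones or chaperones was called, and *Slbp* gave -0.60 (adjusted p = 0.0718).

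The change with age differed between genotypes for *Hist1h4h*. The difference between the genotype effects at 10 and at 2 weeks was -2.57 ± 0.58 (log2, SE, adjusted p = 0.00351 by the interaction term), and it was the only one of 46 members called, beside 24.5% of all genes, with 6.55% called lower. At 2 weeks the gene had read 1.45, 0.801, 1.93 and 2.12 FPKM in *Socs3* cKO against 0.655 to 1.15 FPKM in the wild type. These 2-week groups overlapped (log2 fold change 0.74, limma adjusted p = 0.0829), and at 10 weeks *Socs3* cKO was the lower. The call was lost without wild type replicate 3 at 10 weeks, with a difference of -2.11. *Hist1h4m* (-1.71, adjusted p = 0.0423), *Hist2h2aa1* (-0.78, 0.0308) and *Hist2h3c1* (2.14, 0.0336) were the other members at an adjusted p below 0.05, beside 47.0% of all genes (34.6% higher, 12.5% lower). In the limma fits without 1 mouse their adjusted p reached 0.0975, 0.085 and 0.0634, in the same order. Over the processing alternatives it reached 0.0661, 0.0528 and 0.252. Without wild type replicate 2 at 10 weeks the *Hist2h3c1* term was 1.23. All 10 H4 genes had a negative interaction term, with a median of -1.16 against 0.55 over all genes. Of 27 S phase and cycling genes, *Rrm2* was called with a positive term (1.28, adjusted p = 0.00385) and *Tyms* with a negative one (-2.52), and the list median was 0.36. *Slbp* gave -1.08 (adjusted p = 0.01).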

How the data were processed

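Single-end reads (50 bases) were mapped by the authors to mm9, and the submitters' processing notes name TopHat2 (2.1.0) and Cufflinks. The authors deposited 1 FPKM value per gene and mouse, normalized for gene length and mapped reads. How reads with several matches were shared is not given in the sources used here. Groups and replicate numbers came from the titles, and nothing says that litters or days were shared. The authors tested genes with edgeR. Counts were not used here. Values were analysed as log2(FPKM + 0.1) with limma 3.58.1 (R 4.3.3, trend in the prior variance) on genes that reached 1 FPKM in 3 or more samples of the fit, 2-sided, with Benjamini-Hochberg adjustment over all genes. A fold change on this scale understates that of low genes. Each p-value measures the spread between these libraries. Genotypes were compared within an age, and ages and the interaction in a fit of all 15 mice. Calls needed an adjusted p below 0.01 and an absolute log2 fold change of at least 1.

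Genes with values by mouse were those called in any comparison and the 2 highest of each class. *Hist3h2a* and others said to be so were added after their values were seen. The members and gene lists were chosen with earlier results of these data known. Stem-loops, positions and shared words were read from mm9 (NCBIM37) with the GENCODE vM1 annotation in Python 3.11.15. Depth was estimated from low values as whole reads, on an effective length of the transcript less 199 bases, and covers counting error only. The limma step was tested on simulated data, with changes planted only in genes above the level of most members. Those changes were also larger than most seen here, so that the test does not cover low members. Alternatives were pseudocounts of 1 and 0.01, 2 other filters, 2 scalings, removal of the trend with length and GC content, a replicate block, constant prior variance, all groups in a fit, an adjusted p below 0.05 with no fold limit, and leaving out each mouse.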

Additional observations from a re-analysis of the deposited data

Results flagged for a closer look

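Of 39 groups of 4 mice looked at over 13 genes, 2 held a mouse apart from the other 3 by Dixon's criterion, where chance gives about 1 in 20. *Hist1h1c* was 17.7 FPKM in *Socs3* cKO replicate 1 at 2 weeks, with the other 3 mice of the group at 37.9 to 41.2 FPKM. *Hist3h2ba* was 0.453 FPKM in *Socs3* cKO replicate 3 at 10 weeks, with the others at 0.813 to 0.875 FPKM.

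The genotype effect differed between the ages, by the interaction term in limma and at an adjusted p below 0.05, for 4 of 46 members: *Hist1h4h* (-2.57, log2), *Hist1h4m* (-1.71), *Hist2h2aa1* (-0.78) and *Hist2h3c1* (2.14), where 47.0% of all genes passed. For *Hist1h4m*, *Hist2h2aa1* and *Hist2h3c1* the adjusted p reached 0.0975, 0.085 and 0.0634 when 1 mouse was left out.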

How the results depend on the processing

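Few members were called, so that counts moved easily. At an adjusted p below 0.05 with no fold limit they were 4 at 2 weeks, 6 at 10 weeks, 10 with age in the wild type, 1 with age in *Socs3* cKO and 4 for the interaction. At 2 weeks (1 called) there were 0 with a pseudocount of 1, without an expression filter and after median-of-ratios scaling, and 5 after removal of the length and GC trend. At 10 weeks (1 called) there were 2 with a pseudocount of 1, with a filter of 1 FPKM in every sample of at least 1 group and after median-of-ratios scaling, and 0 without a filter and after removal of the length and GC trend. With age in the wild type (3 called) there were 5 after median-of-ratios scaling, 7 after quantile normalization and 5 after removal of the length and GC trend. For the interaction (1 called) these were 2, 5 and 3. Calls over all genes moved too. At 2 weeks they were 979 higher and 972 lower, and 1000 and 820 after removal of the length and GC trend. With age in the wild type they were 861 and 2698, and under the same settings in turn 1567 and 1726, 1721 and 1574, and 1415 and 1278. For the interaction they were 2504 and 913, and then 1710 and 1580, 1627 and 1958, and 1238 and 1545. Leaving out each mouse gave 0 to 2 calls at 2 weeks, 0 to 2 at 10 weeks, 1 to 5 with age in the wild type, 0 in *Socs3* cKO and 0 to 2 for the interaction. The cause of these moves was not tested.

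Of the class medians, those over 0.2 in size that changed sign were as follows, and smaller ones of H2A, H2B and H4 also crossed 0. H2B at 2 weeks (-0.35) was 0.11 after quantile normalization and 0.14 after removal of the length and GC trend. H2A at 10 weeks (-0.24) was 0.0914 after that removal and 0.00549 without wild type replicate 1, with a range of -0.56 to 0.00549 over single mice left out. H2B with age in the wild type (-0.35) was 0.0291 after median-of-ratios scaling and 0.32 after quantile normalization, and for the interaction (0.35) it was -0.0929 and -0.45. The H2A median of the interaction (-0.23) ran from -0.49 to 0.0659 over single mice left out. The H4 medians at 10 weeks and with age in the wild type kept their sign in every analysis run, at -1.96 to -0.90 and 0.75 to 1.91, and at -1.60 to -1.07 and 0.98 to 1.26 over single mice left out. No single member at an adjusted p below 0.05 changed sign.

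With the replicate number as a block, 0 members were called at 2 weeks, 2 at 10 weeks (*Hist1h4a* and *Hist1h4h*), 1 with age in the wild type (*Hist1h4h*), 0 in *Socs3* cKO and 1 for the interaction. Same-numbered mice did not deviate together: at most 1 of 4 pairs passed a correlation of 0.1, so the numbers are not taken as a pairing. Depth limits precision, since a tested H4 gene held an estimated 0.661 to 41.4 reads in a mouse, on the annotated lengths.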
